A study of Mus musculus with 13 samples.

Results

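Arginine is the shared entry point of 3 small pathways. Arginases split it into urea and ornithine, nitric oxide synthases turn it into nitric oxide and citrulline, and ornithine feeds either proline or, through ornithine decarboxylase, the polyamines putrescine, spermidine and spermine, which growing cells need in quantity. Citrulline can be rebuilt into arginine by argininosuccinate synthase and argininosuccinate lyase. In mammary tissue arginine use rises in lactation, and in tumors arginase and inducible nitric oxide synthase are also widely used as marks of different macrophage states.

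The 10 genes described here were chosen by name from the 24421 genes of the count table: Arg1, Arg2, Nos2, Ass1, Asl, Oat, Odc1, Srm, Sms and Sat1. All 10 are rows of the table, and 9 passed the filter on low counts. Ass1 did not. The set was proposed because Arg1 had already been seen to differ between untreated tumors and glands, so that contrast is given below as a description with no test.

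RNA of bulk tissue from female MMTV-HER2/neu mice was sequenced, 1 tumor or gland per library. The strain, on the FVB/N background and carrying the suffix 202Mul/J, holds rat HER2/neu cDNA under the mouse mammary tumor virus promoter, which drives it in mammary epithelium; every animal, the gland donors included, is of this strain, and the genotype entry of the labels reads Wild type. The groups were 3 primary tumors of untreated mice, 3 primary tumors of mice given the nucleoside reverse transcriptase inhibitor stavudine (STV) at 1 mg/mL in drinking water, about 200 mg/kg/day, 3 recurrent tumors that grew back after a complete response to the HSP90 inhibitor 17-DMAG (20 mg/kg, intraperitoneal), 2 recurrent tumors that grew back after 17-DMAG in mice kept on stavudine, and 2 cancer-free mammary glands of untreated mice. For the primary tumors, which developed on the drug, stavudine was started at 2 months of age; whether the mice with recurrent tumors began then or after the primary tumor appeared is not given per sample. The age at sampling and the reproductive state of the gland donors are not given in the sources used here. By the paper's methods, 17-DMAG was injected 3 times per week and was still given while the tumors regrew to their final size. Recurrence and ongoing 17-DMAG treatment therefore cannot be told apart here. The comparisons address whether stavudine and recurrence under continued 17-DMAG, alone and together, go with a different level of these genes.

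Libraries held 39921388 to 56887708 counts. Values are CPM, counts scaled to a common library total after correction by the trimmed mean of M-values (TMM), a normalization that sets aside genes with extreme differences. Mammary gland 2 stood apart: milk protein genes took 35.7% of its counts, and its TMM factor was 0.4926 against 0.9986 to 1.125 in the other 12 libraries. Luminal epithelial markers, 9 of 9 listed genes in the table, summed to 2142 to 3930 CPM in the tumors and 2568 to 2690 CPM in the glands. Skeletal muscle markers summed to 968 CPM in primary untreated tumor 1 and 1496 CPM in recurrent DMAG+STV tumor 2, and fibroblast markers to 5641 CPM in recurrent DMAG tumor 1. In bulk RNA, fewer cells of a type and less RNA per cell cannot be told apart.

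Because several of the genes have copies or overlapping neighbours, the sequence each shares with other annotated genes was measured first. Mouse positions are on GRCm38. Of all 50-base stretches of their protein-coding transcripts, Arg1 (chromosome 10, 24915207 to 24927470), Nos2 (chromosome 11, 78920787 to 78960226), Asl (chromosome 5, 130011258 to 130024381) and Oat (chromosome 7, 132557475 to 132576398) shared 0% with any other annotated gene. Srm (chromosome 4, 148591513 to 148594619) shared 2.41% and Sat1 (chromosome X, 155213126 to 155216449) 6.86%. The shares were 28.1% for Sms (chromosome X, 157443851 to 157492287), led by the copy Sms-ps, and 42.2% for Odc1 (chromosome 12, 17544808 to 17551502), spread over 16 other annotated genes. For Arg2 (chromosome 12, 79130788 to 79156301) the share was 21.2%, all of it where its exons overlap Vti1b and Gm48780 on the opposite strand; the kit marks strand, but the strand setting of the counting is not given in the sources used here. Reads of Odc1, Sms and Arg2 can therefore be split or lost between genes, and their levels are uncertain to that extent.

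**Figure D1:**
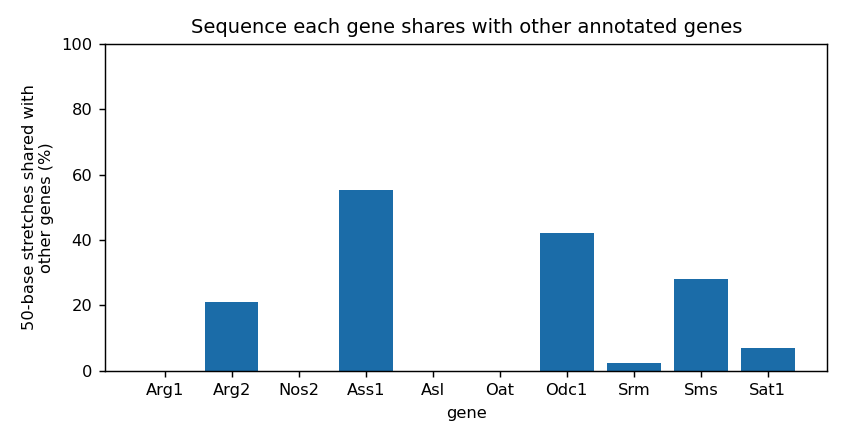
Percentage of the 50-base stretches of each gene's protein-coding transcripts (vertical axis) that occur in a transcript of another annotated gene, for the 10 genes (horizontal axis). Ass1 reaches 55.3% and Odc1 42.2%, while Arg1, Nos2, Asl and Oat are at 0%.

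The arginase paralogs Arg1 and Arg2 had no 50-base stretch in common, and their counts are read as those of separate genes.

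Ass1 (chromosome 2, 31470270 to 31520670), which joins citrulline and aspartate in the first step of arginine resynthesis, had almost no counts: 0 to 3 counts in each of the 13 libraries, 14 counts in all, and 0 in 5 libraries. Those counts are at or under the limit that a count of 0 allows, 3 counts, which is 0.0587 to 0.107 CPM depending on the library. Gm5424, a processed copy on another chromosome, is 99.5% identical to the Ass1 coding region (6 of 1236 bases differ, and the longest identical run is 398 bases). Gm5424 shares 55.3% of the Ass1 stretches, and its own count was 0 in all 13 libraries. The remaining 44.7% of Ass1 stretches occur in no other annotated gene. How reads that match several places were counted is not given in the sources used here, so no level is stated for Ass1.

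Arg1, the cytosolic arginase, was the most variable of the 9 genes across the 11 tumors, with a 23.6-fold range from 12.6 to 298 CPM. In primary untreated tumors it stood at 139, 165 and 259 CPM (188 ± 63.1, SD, n = 3), and in primary tumors under stavudine at 298, 144 and 95.9 CPM (179 ± 106, SD, n = 3). In recurrent tumors after 17-DMAG it stood at 94.0, 63.9 and 130 CPM (96.1 ± 33.2, SD, n = 3). In recurrent tumors that grew back under stavudine it stood at 28.8 and 12.6 CPM (20.7 ± 11.4, SD, n = 2). These last 2 were the lowest of the 11 tumors, near the 24.8 and 11.2 CPM of the glands, and they do not overlap with any other tumor group. The counts behind them, 1475 and 620, are far above the limit of 3 counts.

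The fitted difference was largest between recurrent and primary tumors under stavudine, where the log2 fold change of Arg1 was -3.11 (SE 0.61, 95% interval -4.47 to -1.75). The adjusted p was 0.254 by edgeR's quasi-likelihood test with Benjamini-Hochberg adjustment over all 16870 genes tested, so the difference did not pass the threshold of 0.05. Both recurrent tumors lay below all 3 primary ones, as they also did for Asl. How many of all genes separate groups this small was not counted for any tumor comparison. Nothing is read from a lack of overlap alone. Between recurrent tumors with and without stavudine the log2 fold change was -2.21 (SE 0.58, interval -3.51 to -0.91, edgeR adjusted p = 0.332), again with no overlap. DESeq2, a second count model, gave adjusted p-values of 1.13e-05 and 0.0043 for the same contrasts and called Arg1 in both. The call thus depends on the tool. Both contrasts rest on the same 2 recurrent tumors under stavudine, so they are not separate results.

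Without stavudine, Arg1 in recurrent against primary tumors had a log2 fold change of -0.98 (SE 0.48, interval -2.05 to 0.09, edgeR adjusted p = 0.514), and the groups did not overlap. Stavudine alone in primary tumors gave -0.08 (SE 0.47, interval -1.14 to 0.98, edgeR adjusted p = 0.9998), with overlapping groups. That interval holds changes of about the same size in either direction, so a difference was not detectable at this spread, which is not the same as no difference. Averaged over both arms, recurrence gave -2.05 (SE 0.38, interval -2.90 to -1.19, edgeR adjusted p = 0.287; DESeq2 adjusted p = 1.74e-05). The difference between the arms themselves, the interaction, was -2.13 (SE 0.73, interval -3.77 to -0.49), with an unadjusted edgeR p of 0.016 and an adjusted p of 0.538. The larger difference under stavudine was therefore not shown to differ from the one without it. Each contrast in this paragraph uses the untreated primary tumors, in which Arg1 had already been seen to differ from glands. Their p-values for Arg1 are not free of that choice.

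**Figure D2:**
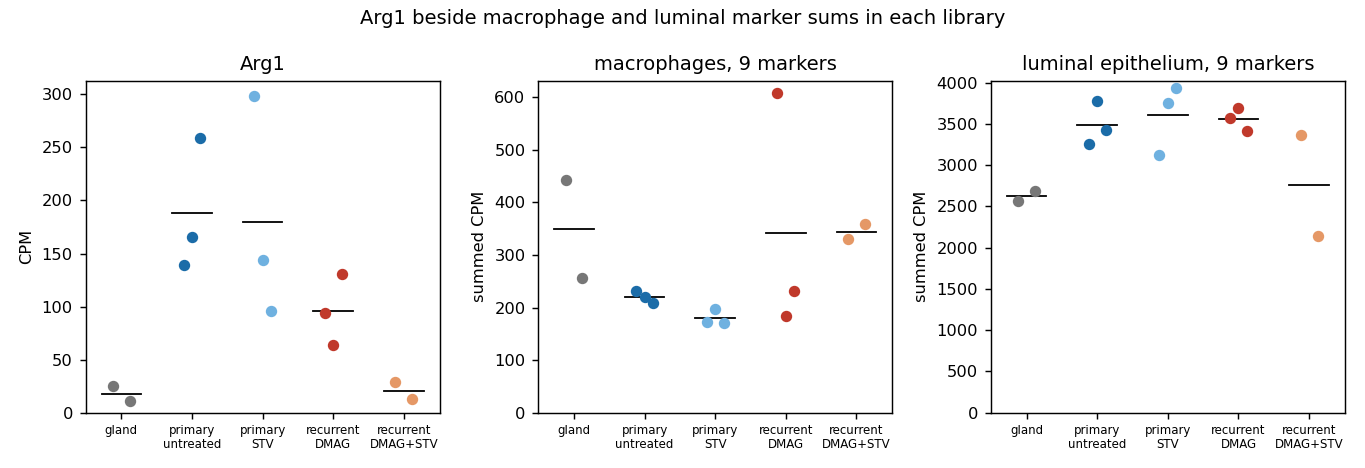
Arg1 CPM (left), summed CPM of 9 macrophage markers (middle) and summed CPM of 9 luminal epithelial markers (right) in each library, by group; points are libraries and lines are group means. The 2 recurrent DMAG+STV tumors are the lowest tumors for Arg1 at 12.6 and 28.8 CPM. Their macrophage marker sums, 330 and 359 CPM, are above all 6 primary tumors and within the 183 to 609 CPM of the recurrent DMAG tumors.

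Markers of other cells were read beside Arg1, since macrophages also make it. The 9 macrophage markers, from Cd68 and Csf1r to C1qa, summed to 330 and 359 CPM in recurrent tumors under stavudine against 171 to 197 CPM in primary tumors under stavudine, and 8 of the 9 were higher with no overlap. In this contrast the macrophage sum was higher and Arg1 lower, and nothing is read from the count without overlap. Against recurrent tumors without stavudine, where Arg1 was also lower, 1 of the 9 was higher and 8 overlapped. The share of all genes without overlap was not counted here either. In recurrent tumors without stavudine the list summed to 183 to 609 CPM, overlapping the 209 to 232 CPM of untreated primary tumors, and 0 of the 9 markers were without overlap. The luminal list summed to 3367 and 2142 CPM in recurrent tumors under stavudine against 3124 to 3930 CPM in primary tumors under stavudine, with 1 of 9 markers lower. Neutrophil markers, 8 of 9 listed genes in the table, summed to 8.27 and 8.64 CPM against 2.57 to 3.27 CPM, with 3 of 8 higher and with Cxcr2 at 0 in the primary tumors under stavudine. Fibroblast markers summed to 1388 and 1818 CPM against 239 to 645 CPM, with 3 of 6 higher. The part of these cells in the Arg1 values was not tested.

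Arg2, the mitochondrial arginase, was low and mostly even. It stood at 2.47, 3.18 and 1.24 CPM in primary untreated tumors, 2.26, 12.6 and 1.92 CPM in primary tumors under stavudine, 2.13, 1.52 and 2.25 CPM in recurrent tumors and 1.72 and 3.46 CPM in recurrent tumors under stavudine. Primary STV tumor 2, at 12.6 CPM, stood above the 1.24 to 3.46 CPM of the other 10 tumors. The log2 fold change for stavudine in primary tumors was 1.27 (SE 0.71, interval -0.33 to 2.86, edgeR adjusted p = 0.9998) and became -0.14 without that tumor. Under stavudine, recurrent against primary gave -1.10 (SE 0.81, edgeR adjusted p = 0.630), which became 0.30 without it. Per kilobase of exon, Arg2 averaged 2.21 CPM across the 11 tumors against 88.1 CPM for Arg1, and the Arg1 value was above the Arg2 value in 11 of 11 tumors.

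Nos2, the inducible nitric oxide synthase, was the lowest of the 9 genes per kilobase, at 0.358 CPM on average over the tumors. Its CPM was 1.39, 1.92 and 1.44 in primary untreated tumors, 1.08, 0.479 and 2.11 in primary tumors under stavudine, 4.89, 1.05 and 0.944 in recurrent tumors and 0.587 and 1.02 in recurrent tumors under stavudine. Recurrent DMAG tumor 1, the library with the high fibroblast sum and the highest macrophage sum (609 CPM), was above the 0.479 to 2.11 CPM of the other 10 tumors. Recurrent against primary tumors without stavudine gave a log2 fold change of 0.52 (SE 0.71, edgeR adjusted p = 0.781), which turned to -0.66 without that tumor. Stavudine in recurrent tumors gave -1.51 (SE 0.84, interval -3.38 to 0.37, edgeR adjusted p = 0.736), which shrank to -0.31 without it.

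**Figure D3:**
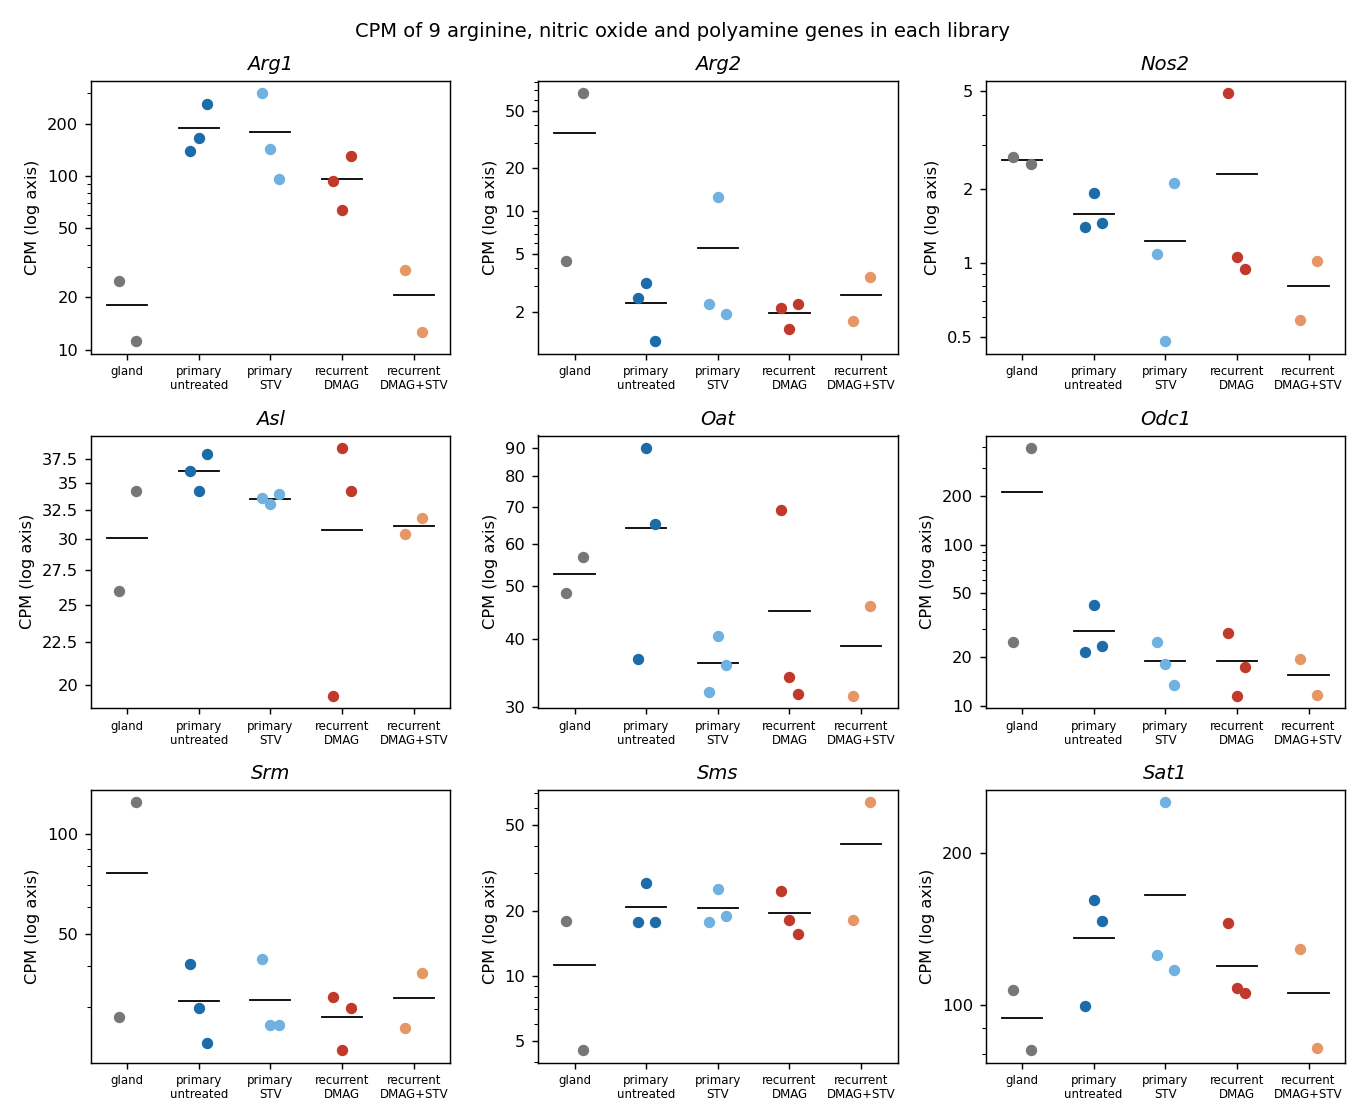
CPM on a log axis in each library for 9 genes, by group (gland 2 libraries, recurrent DMAG+STV 2, other groups 3); points are libraries and lines are group means of CPM. Arg1 is low in the glands and the recurrent DMAG+STV tumors, between 11.2 and 28.8 CPM, and the high points of Arg2, Odc1 and Srm in the gland column are all mammary gland 2.

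Asl, which releases arginine and fumarate from argininosuccinate, varied little. Across the 11 tumors it ranged from 19.4 to 38.6 CPM, and 10 of them lay between 30.4 and 38.6; recurrent DMAG tumor 1 was the low one. Recurrent against primary tumors, averaged over both arms, differed by a log2 fold change of -0.18 (SE 0.16, interval -0.53 to 0.17, edgeR adjusted p = 0.617). The interval limits any change in Asl to less than that fitted for Arg1. Asl was lower without overlap for stavudine in primary tumors (log2 fold change -0.12, edgeR adjusted p = 0.9998). The same held for recurrence under stavudine (-0.10, edgeR adjusted p = 0.886). Both comparisons share the primary tumors under stavudine, and nothing is read from the lack of overlap.

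Oat, the mitochondrial aminotransferase that sends ornithine toward proline and glutamate, was 36.8, 90.1 and 65.1 CPM in primary untreated tumors and 31.9, 40.5 and 35.9 CPM in primary tumors under stavudine. Recurrent tumors stood at 69.2, 34.1 and 31.6 CPM, and recurrent tumors under stavudine at 31.4 and 46.1 CPM. The 3 values above 60 CPM were primary untreated tumors 2 and 3 and recurrent DMAG tumor 1. For stavudine in primary tumors the log2 fold change was -0.84 (SE 0.38, interval -1.68 to 0.0021, edgeR adjusted p = 0.9998), with overlapping groups. For recurrence without stavudine it was -0.52 (SE 0.37, edgeR adjusted p = 0.588). Without primary untreated tumor 2 these were -0.49 and -0.18, and without recurrent DMAG tumor 1 the second was -0.95.

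Odc1, the decarboxylase that commits ornithine to polyamines, was 21.6, 42.4 and 23.4 CPM in primary untreated tumors, 24.9, 18.3 and 13.4 CPM under stavudine, 28.2, 11.6 and 17.5 CPM in recurrent tumors and 19.5 and 11.7 CPM in recurrent tumors under stavudine. In each of the 4 pairwise comparisons made here the groups overlap, although all 3 untreated primary tumors lay above both recurrent tumors under stavudine. Log2 fold changes were -0.64 (SE 0.40) for stavudine in primary tumors, -0.63 (SE 0.40) for recurrence without stavudine and -0.45 (SE 0.30, interval -1.13 to 0.23) for recurrence averaged over both arms, with edgeR adjusted p-values of 0.9998, 0.559 and 0.511. Without primary untreated tumor 2, the highest, they were -0.24, -0.24 and -0.27. All these values carry the uncertainty from the copies of Odc1. AW146154, one of the 2 genes sharing its sequence that are in the table, held 233 to 1274 counts per library.

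The aminopropyl transferases differed from each other in 1 tumor. Srm, which makes spermidine, stayed within 22.3 to 41.8 CPM in all 11 tumors, a 1.88-fold range, and recurrence averaged over both arms gave -0.07 (SE 0.20, interval -0.53 to 0.38, edgeR adjusted p = 0.891). Sms, which makes spermine from spermidine, was 63.5 CPM in recurrent DMAG+STV tumor 2 and 15.6 to 27.0 CPM in the other 10 tumors, including 18.1 CPM in recurrent DMAG+STV tumor 1. That single tumor set the fitted values: 0.99 (SE 0.45) for recurrence under stavudine and 1.07 (SE 0.45) for stavudine in recurrent tumors, with edgeR adjusted p-values of 0.500 and 0.609, and an interaction of 1.10 (SE 0.61, edgeR adjusted p = 0.699). Without it they were -0.19, -0.11 and -0.11. The same tumor had the highest skeletal muscle sum of the 11 (1496 CPM), and primary untreated tumor 1, with 968 CPM of muscle markers, held 17.7 CPM of Sms. The part of muscle RNA in the Sms value was not tested.

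Sat1, the acetyltransferase that starts polyamine breakdown and export, was the most abundant member per kilobase, at 113 CPM on average over the tumors. It was 99.5, 162 and 146 CPM in primary untreated tumors, 125, 252 and 117 CPM in primary tumors under stavudine, 145, 108 and 106 CPM in recurrent tumors and 129 and 82.1 CPM in recurrent tumors under stavudine. Primary STV tumor 2, which also held the high Arg2 value, was the highest of the 11. The log2 fold change for recurrence under stavudine was -0.64 (SE 0.37, interval -1.47 to 0.19, edgeR adjusted p = 0.556) and, averaged over both arms, -0.42 (SE 0.25, edgeR adjusted p = 0.462); without that tumor they were -0.21 and -0.20. The groups overlapped in both.

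**Figure D4:**
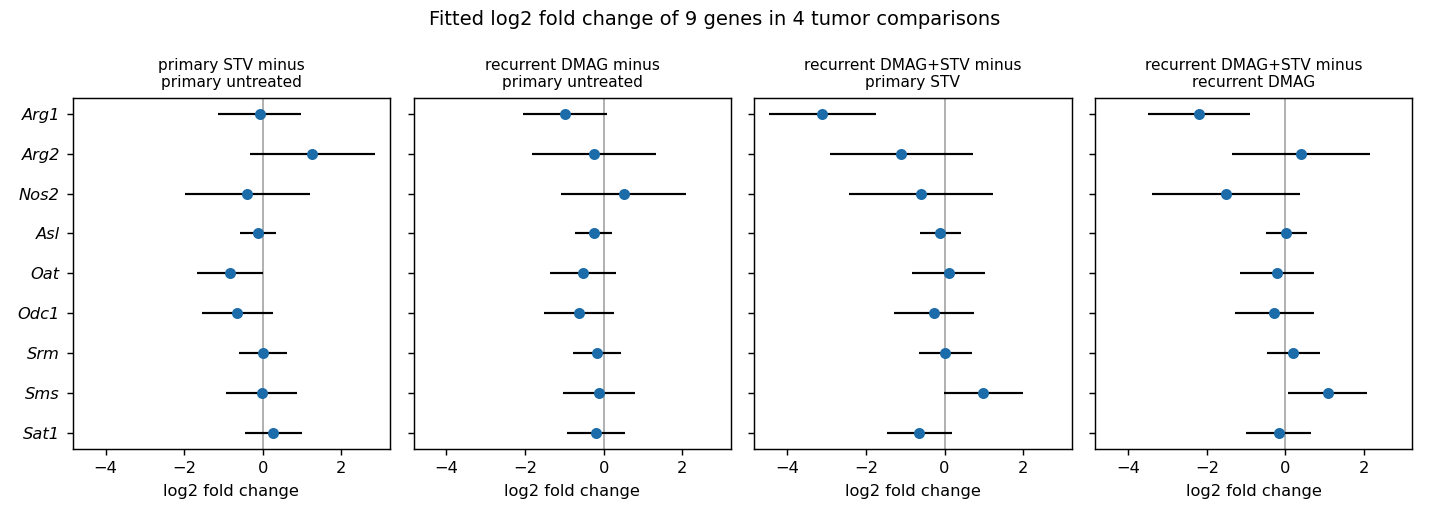
Fitted log2 fold change of 9 genes (rows) with 95% intervals (lines) in 4 comparisons among the 11 tumors. The intervals of Arg1 lie below 0 in both comparisons of the recurrent DMAG+STV tumors (-4.47 to -1.75 and -3.51 to -0.91); no value passed an adjusted p of 0.05 in edgeR.

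Counted over the 9 tested members, edgeR called 0 in each of the 6 contrasts, where 0% of all 16870 genes were called. At an unadjusted p under 0.05, it held 0 members for stavudine in primary tumors (background 3.76% of all genes), 0 for recurrence without stavudine (9.69%), 1 for recurrence under stavudine (Arg1; 10.1%), 2 for stavudine in recurrent tumors (Arg1 and Sms; 7.84%), 1 for recurrence averaged over both arms (Arg1; 13.6%) and 1 for the interaction (Arg1; 7.84%). Counts of 0 to 2 among 9 genes are too small to read against these shares. DESeq2 called 331 of 15727 genes for recurrence under stavudine, 277 of 14446 for stavudine in recurrent tumors and 419 of 15404 for the average. Arg1 was the only member among them in each. For stavudine in primary tumors it called 17 of 16707 genes, for recurrence without stavudine 61 of 16707 and for the interaction 189 of 16053. No member was among these. limma voom called 0 of the 16870 genes, and so no member, in each of the 6. The median log2 fold change of the members was -0.08, -0.24, -0.27, -0.18, -0.21 and 0.15 in the order given, against -0.03, -0.005, 0.01, -0.005, 0.002 and 0.03 over all genes tested.

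Between primary untreated tumors and glands, Arg1 was higher in all 3 tumors, with a log2 difference of 3.43 in mean log2(CPM + 0.1). The members were proposed with this contrast in view, so it is described only. Asl, at 36.3, 34.3 and 38.0 CPM in the tumors and 25.97 and 34.2 CPM in the glands, was also higher without overlap (0.28). Arg2, at 4.52 and 66.2 CPM in the glands, and Nos2, at 2.69 and 2.53 CPM in the glands, were lower in the tumors without overlap (-2.96 and -0.70); the Arg2 value was -1.04 without gland 2. That makes 4 of 9 members without overlap, where 39.2% of all 17135 genes kept were without overlap, and nothing is read from it. Many cell type markers moved with this contrast. In the tumors 8 of 8 basal, 6 of 6 fibroblast, 5 of 5 endothelial, 6 of 6 adipocyte, 5 of 5 mast cell and 4 of 4 B cell markers were lower without overlap. Of 9 luminal markers 6 were higher and 2 lower. In the other lists 4 of 9 macrophage, 4 of 8 neutrophil, 1 of 5 T cell, 3 of 7 milk protein and 0 of 7 skeletal muscle markers were lower, and the rest overlapped. Macrophage markers summed to 209 to 232 CPM in the tumors and 442 and 255 CPM in the glands. Fibroblast markers, for example, summed to 401 to 891 CPM in the tumors and 2307 and 2576 CPM in the glands, and B cell markers to 0.622 to 1.14 CPM and 2.18 to 114 CPM. Their part in the member values was not tested. Over all 11 tumors against the glands 0 of 9 members were without overlap, against 11.5% of genes.

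The glands differed from each other in their markers and in the polyamine genes. B cell markers summed to 114 CPM in gland 1 and 2.18 CPM in gland 2, and T cell markers to 90.5 and 4.89 CPM. Odc1 was 25.0 CPM in gland 1 and 398 CPM in gland 2, Srm 28.01 and 124 CPM, and Sms 17.9 and 4.53 CPM. Gland 2 is the library with the large milk protein share. The tumor minus gland log2 differences of -1.84 (Odc1), -0.95 (Srm) and 1.17 (Sms) rest on it: without gland 2 they were 0.15, 0.12 and 0.18. Oat (48.6 and 56.7 CPM in the glands; 0.19) and Sat1 (107 and 81.3 CPM; 0.51) overlapped between tumors and glands. The part of the milk protein share in these values was not tested.

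Neighbouring pathway genes were read from a list of 36 genes on arginine entry, nitric oxide cofactors, the urea cycle, proline synthesis and polyamine control. Of these, 29 were tested and edgeR called 0 in each contrast. At an unadjusted p under 0.05 the numbers higher and lower were 0 and 1, 2 and 2, 3 and 1, 2 and 1, 4 and 1, and 2 and 1, in the same order as above, where 3.76%, 9.69%, 10.1%, 7.84%, 13.6% and 7.84% of all genes had such a p. Among the genes that failed the filter were Oaz1, the antizyme that sends ornithine decarboxylase to the proteasome, with 0 to 6 counts per library, and Amd1, which supplies the aminopropyl donor, with 0 to 2. How reads matching several places were counted is not given in the sources used here, so no level is read for them.

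Pycr1, which reduces pyrroline-5-carboxylate to proline, had the lowest fold change of the list for recurrence without stavudine: 17.5, 25.5 and 29.1 CPM in primary untreated tumors against 7.99, 8.20 and 13.7 CPM in recurrent tumors, with no overlap (log2 fold change -1.29, SE 0.26, edgeR adjusted p = 0.509). In primary tumors under stavudine it stood at 14.1, 17.2 and 16.03 CPM (-0.62, SE 0.26, adjusted p = 0.9998). Both comparisons share the untreated tumors. Sat2, a relative of Sat1, stood at 9.56, 8.46 and 10.4 CPM in primary untreated tumors and in recurrent tumors at 2.36, 7.62 and 7.07 CPM (-0.75, SE 0.36, adjusted p = 0.512); the log2 fold change was -0.32 for stavudine in primary tumors and 0.56 for stavudine in recurrent tumors. Gch1, which makes the cofactor of nitric oxide synthases, was 2.93, 2.79 and 2.27 CPM in primary untreated tumors and 9.49, 4.47 and 3.15 CPM in recurrent tumors (1.08, SE 0.47, adjusted p = 0.510).

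The cationic amino acid transporter Slc7a1 was 60.6 and 86.4 CPM in recurrent tumors under stavudine. Primary tumors under stavudine held 51.5, 36.2 and 44.3 CPM (log2 fold change 0.74, SE 0.25, edgeR adjusted p = 0.419). Recurrent tumors without stavudine, at 64.9, 43.0 and 44.4 CPM, overlapped with them (0.54, SE 0.25, edgeR adjusted p = 0.665 for stavudine in recurrent tumors). Gamt, which methylates guanidinoacetate to creatine, was 2.85 and 3.14 CPM in recurrent tumors under stavudine. In primary tumors under stavudine it was 1.64, 1.48 and 1.98 CPM (0.82, SE 0.30, adjusted p = 0.448). Against recurrent tumors without stavudine the Gamt value was 0.70. Ddah2, a relative of the methylarginine hydrolase Ddah1, was 34.8 and 22.1 CPM in recurrent tumors under stavudine. Recurrent tumors without stavudine held 41.9, 60.4 and 49.8 CPM (-0.83, SE 0.28, adjusted p = 0.493). Ddah1 (-0.60) and the hypusine enzyme Dohh (-0.10) were the lowest for recurrence under stavudine among listed genes with no overlap and an average log2 CPM of 1 or more, and Eif5a2 (-0.16), a hypusine-carrying factor, came next to Ddah2 by the same limits for stavudine in recurrent tumors. None of these passed the adjusted threshold.

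**Figure D5:**
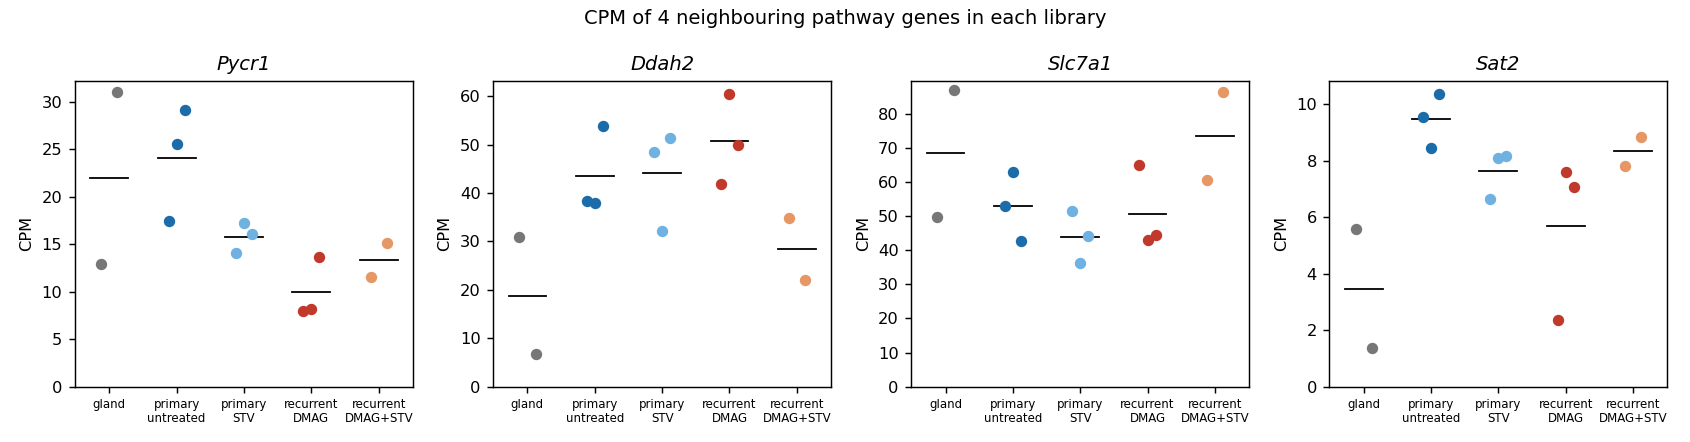
CPM of Pycr1, Ddah2, Slc7a1 and Sat2 in each library, by group; points are libraries and lines are group means. Pycr1 in recurrent DMAG tumors (7.99 to 13.7 CPM) lies below the primary untreated tumors (17.5 to 29.1 CPM), and Slc7a1 in recurrent DMAG+STV tumors (60.6 and 86.4 CPM) above the primary STV tumors (36.2 to 51.5 CPM).

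The genes whose log2 CPM followed a member most closely over the 11 tumors were picked as the highest of about 12757 candidates, so their correlations are descriptions of a selected extreme; all points share library depth and tissue makeup. For Arg1 they were Serac1 (Pearson r = 0.93, Spearman rho = 0.93), Ica1 (0.93 and 0.95) and Tfb2m (0.92 and 0.84). For Nos2 they were Vegfa (0.94 and 0.85), Sema3f (0.94 and 0.94) and Cd93 (0.92 and 0.82). For Odc1 they were Stard5 (0.95 and 0.95), Xpnpep3 (0.92 and 0.87) and Nadsyn1 (0.92 and 0.88).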

How the data were processed

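Total RNA of 13 tissue samples was depleted of ribosomal RNA and made into libraries with a dUTP kit. The authors aligned reads to mm10 (GRCm38) with STAR and counted genes with featureCounts (Subread 1.6.2; base calls with bcl2fastq 2.20, per the labels' processing notes); the deposited values are raw counts per gene. Strand and multiple-match settings are not given in the sources used here. The file has 24421 genes.

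Tumors were compared with edgeR 4.0.16 (quasi-likelihood test, TMM, filterByExpr, robust dispersions; 16870 genes, 11 tumors, group means) in R 4.3.3, two-sided, Benjamini-Hochberg adjusted, threshold 0.05. DESeq2 1.42.0 and limma 3.58.1 (voom) were alternatives. Printed CPM uses TMM factors of all 13 libraries. The glands were compared without a test on log2(CPM + 0.1). The edgeR fit was also run on counts simulated with a common spread for all genes. That run does not show how the fit behaves on these tumors. Labels do not tell whether tumors came from separate mice, so p-values measure the spread between samples. Libraries of 1 group all differed beyond sampling noise (chi-square per gene 47.8 to 1812 over 11 pairs).

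The members and lists were chosen with earlier results of these data known. All 10 members are named; listed neighbours are named where called or, per comparison, as the 2 highest and 2 lowest fold changes among genes whose groups did not overlap and whose average log2 CPM reached 1; the 3 closest correlates are named for Arg1, Nos2 and Odc1. Shared stretches were counted in GENCODE M21 transcripts; some sequences are not reported here. Positions come from RefSeq for GRCm38.p6. Counting intervals and limits cover counting error only.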

Additional observations from a re-analysis of the deposited data

How the results depend on the processing

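DESeq2 called 1 member, Arg1, for recurrence under stavudine, for stavudine in recurrent tumors and for recurrence averaged over both arms, where edgeR called 0; the cause was not tested. Over DESeq2, voom, other scalings, no filter, other sets of libraries and each tumor left out, the Arg1 log2 fold change ran from -3.84 to -2.52 for recurrence under stavudine (adjusted p 1.13e-05 to 1) and from -2.93 to -1.74 for stavudine in recurrent tumors (adjusted p 0.0043 to 1); it kept its sign. Replicate numbers showed no sign of pairing samples. The r of same-numbered deviations was -0.30 to 0.22 over 15 pairs, 2 above 0.1. For other numbers it was -0.37 to 0.37 over 30 pairs, 13 above 0.1. Groups of 2 or 3 tumors are too small to exclude a pairing. With a replicate block edgeR still called 0 members in all 6 contrasts, and the block gave Arg1 -3.10 for recurrence under stavudine.

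Leaving out 1 tumor at a time turned the sign of these log2 fold changes, none of them called: stavudine in primary tumors for Arg1 (-0.65 to 0.23) and Arg2 (-0.14 to 1.68); recurrence without stavudine for Nos2 (-0.66 to 0.90); recurrence under stavudine for Arg2 (-1.69 to 0.30) and Sms (-0.19 to 1.62); stavudine in recurrent tumors for Sms (-0.11 to 1.70); the interaction for Sms (-0.11 to 1.70); and averaged recurrence for Srm (-0.22 to 0.065). Against glands, leaving out 1 library gave Oat -0.10 to 0.54, Odc1 -3.83 to 0.15 and Srm -2.02 to 0.12, and 4 to 8 members without overlap, 8 without gland 1, where a single gland remains and 77.9% of all genes were without overlap (44.2% to 61.6% with another library left out). The other scalings gave 3 or 4, beside 28.9% to 39.2% of genes. Library totals in place of TMM moved the differences from glands to 0.76 for Asl, 1.00 for Sat1 and -0.24 for Nos2. Groups held 2 or 3 tumors, and the biological coefficient of variation was 0.402.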
